A study of Rattus norvegicus with 6 samples.

Results

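The genes described here encode subunits and regulators of the mitochondrial calcium uniporter complex: Mcu, Mcub, Micu2, Micu3, Smdt1 and Mcur1. They were taken by gene symbol from a table of 40456 genes, in which all 6 had a row, and all 6 passed the filter on low counts. RNA had been sequenced from H9c2 (2-1) cells, a rat cardiomyoblast line labelled WT in both groups. All cells were kept for 5 days in medium with 1% serum and 1 µM retinoic acid, which pushes this line towards a muscle-like state, and received a gapmer at 25 nM for 24 h before harvest. Gapmers are antisense oligonucleotides with locked nucleic acid ends, and a transcript paired with one is cleaved by RNase H. The 3 control libraries came from cells given a negative control gapmer, and the 3 knockdown libraries from cells whose gapmer targets Tug1, a long non-coding RNA. The labels number the libraries but do not say whether they came from separate cultures, so p-values measure the spread between these libraries, which may be technical.

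The treatment that separates the groups is defined by the pair of oligonucleotides below, each of 16 bases and given 5′ to 3′ from the labels. A single Tug1 sequence was used, so an effect of that sequence and an effect of losing Tug1 cannot be told apart.
Tug1 gapmer: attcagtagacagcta
Negative control gapmer: gctcccttcaatccaa
Base pairing places the Tug1 gapmer on the stretch tagctgtctactgaat.

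The uniporter is the channel through which calcium crosses the inner mitochondrial membrane into the matrix, driven by the membrane potential. Mcu forms the pore, Mcub is a paralogue of Mcu that enters the pore and lowers its conductance, and Smdt1 encodes EMRE, the small membrane protein that animal uniporters need in order to conduct. Micu2 and Micu3 encode EF-hand proteins of the intermembrane space that sense calcium and set the threshold and gain of the channel. Mcur1 encodes an inner membrane protein described as a scaffold for the complex. In heart and skeletal muscle, uptake through this channel links cytosolic calcium to the rate of matrix dehydrogenases.

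Total counts ran from 12978548 to 13544337 per library, and 1 CPM, the count scaled to library size, stood for 12.9 to 13.8 counts. Tug1 was at 22.0% of its control level after knockdown, at -2.19 on the log2 scale (SE 0.0786, edgeR adjusted p 4.39e-16). The labels call the cells cardiomyocytes, but 5 of 12 cardiomyocyte markers (Myh6, Myh7, Nppb, Ryr2 and Nkx2-5) had at most 3 counts in every library. Of the others, Tnnt2 was at 349 CPM in control and 410 CPM in knockdown libraries on average. Actc1 was at 9.22 and 18.1 CPM, Gata4 at 12.7 and 10.6 CPM, and Myl2 at 0.539 and 1.28 CPM. Tnni3, Nppa and Myl7 had at most 4 counts in any library. The 12 cardiomyocyte markers summed to 359 to 391 CPM in control and 418 to 471 CPM in knockdown libraries, with 3 higher and 0 lower among 4 tested by edgeR (adjusted p under 0.05). The summed level of 12 skeletal muscle markers ran from 1118 to 1143 CPM in control and from 1630 to 1704 CPM in knockdown libraries, with 8 higher and 2 lower among 10 tested. The 8 fibroblast markers summed to 43814 to 45162 CPM in control and 41192 to 43997 CPM in knockdown libraries. Among 7 tested, 2 were higher and 3 lower. Over all tested genes, 61.7% were called by the same test, 30.8% higher and 30.9% lower. Of 4 endothelial markers, Pecam1, Cdh5 and Kdr had at most 3 counts in every library, and the list summed to 2.55 to 3.70 CPM in control and 2.07 to 3.12 CPM in knockdown libraries. The summed levels of both muscle lists thus moved with the groups, the cardiomyocyte sum being mostly Tnnt2. The fibroblast sum was mostly Col1a1, Col1a2 and Col3a1, at log2 fold changes of -0.23, -0.08 (not called) and 0.47. The part of these lists in the changes of the uniporter genes was not tested. In bulk RNA, more cells of a state and more RNA per cell cannot be told apart.

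The series title names uniporter expression, and the first comparison was the level of each member in knockdown against control libraries. Mcu and Micu3 rose, and Mcub, Smdt1, Micu2 and Mcur1 did not pass the test. Changed here means an adjusted p under 0.05 in edgeR's quasi-likelihood test fitted over 14216 genes, with Benjamini-Hochberg adjustment over all of them. By that rule 2 of 6 members changed, both higher, against 61.7% of all tested genes. Of all tested genes, 30.8% were called higher and 30.9% lower. The libraries of the groups did not overlap for 2 of 6 members, against 65.6% of all tested genes. The median log2 fold change of the members was 0.19, and that of all tested genes was 0.00. The count of changed members was thus not above the background share.

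**Figure D1:**
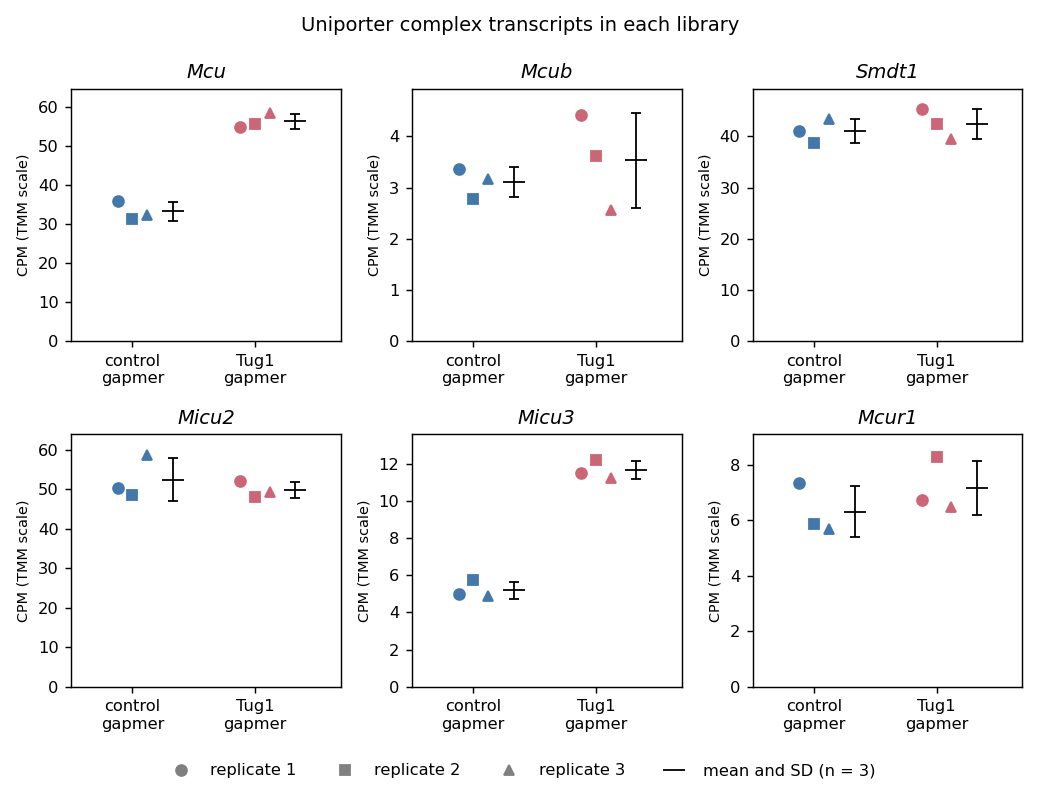
Level of each uniporter complex transcript in CPM on the TMM scale, one point per library with its replicate number as the symbol, and the mean and SD of 3 libraries beside each group; each axis starts at 0. Knockdown libraries sit above every control library for Mcu and Micu3, and the groups overlap for the other 4 genes.

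Values of single libraries are given in the order of their replicate numbers. The pore gene Mcu stood at 36.0, 31.4 and 32.3 CPM in the control libraries and at 54.8, 55.5 and 58.4 CPM in the knockdown libraries. The lowest knockdown library lay well above the highest control library. The group levels were 33.2 ± 2.44 CPM (SD, n = 3) and 56.2 ± 1.90 CPM (SD, n = 3), a 1.69-fold rise. The log2 fold change was 0.76 (SE 0.0680, 95% interval 0.62 to 0.90, edgeR adjusted p 1.71e-09). That value was higher than the log2 fold change of 91.2% of tested genes.

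Mcub, the paralogue that acts as a dominant-negative pore subunit, was the least abundant member by counts, with 44, 36 and 41 counts in the control libraries and 61, 49 and 34 counts in the knockdown libraries. Knockdown replicate 1 held the highest value of the 6 libraries and knockdown replicate 3 the lowest, so the control values lay inside the knockdown range. The levels were 3.11 ± 0.298 CPM and 3.54 ± 0.930 CPM (SD, n = 3). The log2 fold change of Mcub was 0.19 (SE 0.218, edgeR adjusted p 0.467), with a 95% interval from -0.26 to 0.64. Counting error alone gives a coefficient of variation of 15.7% at the control depth of Mcub and 14.4% at its knockdown depth, and the observed values were 9.58% and 26.3%. At this depth neither no change nor a change nearly as large as that of Mcu lay outside the interval for Mcub.

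Smdt1, which encodes EMRE, was measured with 499 to 624 counts per library. Its level was 41.0, 38.6 and 43.3 CPM in the control libraries and 45.2, 42.4 and 39.5 CPM in the knockdown libraries, and the groups overlapped. The log2 fold change of Smdt1 was 0.05 (SE 0.0703, edgeR adjusted p 0.566), and its 95% interval of -0.10 to 0.19 ended below the interval of Mcu.

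The calcium-sensing regulators differed from each other. Micu2 was at 50.2, 48.5 and 58.5 CPM in the control libraries and at 52.1, 47.9 and 49.3 CPM in the knockdown libraries. Control replicate 3 was the highest of the 6 libraries, and the other 5 lay within 47.9 to 52.1 CPM. The log2 fold change of Micu2 was -0.07 (SE 0.0704, 95% interval -0.22 to 0.07, edgeR adjusted p 0.380).

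Micu3, the regulator best known from excitable tissues, stood at 4.99, 5.73 and 4.86 CPM in the control libraries and at 11.5, 12.2 and 11.3 CPM in the knockdown libraries. The control libraries held 63 to 74 counts and the knockdown libraries 149 to 165, with no overlap. The level rose from 5.19 ± 0.470 to 11.7 ± 0.491 CPM (SD, n = 3), or 2.25-fold. The log2 fold change of Micu3 was 1.17 (SE 0.133, 95% interval 0.89 to 1.44, edgeR adjusted p 7.62e-08). It was the highest of the 6 members and exceeded that of 97.0% of tested genes.

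Mcur1, the scaffold gene, was measured with 74 to 112 counts per library. It stood at 7.36, 5.88 and 5.71 CPM in the control libraries and at 6.74, 8.28 and 6.49 CPM in the knockdown libraries. The groups overlapped, since control replicate 1 lay above knockdown replicates 1 and 3. The log2 fold change of Mcur1 was 0.18 (SE 0.153, 95% interval -0.13 to 0.50, edgeR adjusted p 0.310).

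Long genes lay higher after knockdown across the table: the median log2 fold change was 0.33 in the tenth of tested genes with the longest genomic span and -0.21 in the tenth with the shortest. Genomic span, from the RefSeq table, places Mcu longer than 93.7% of tested genes with a span, Micu3 longer than 85.3%, Micu2 longer than 83.8% and Mcub longer than 81.0%. Mcur1 was longer than 41.7% and Smdt1 longer than 6.89%. With an offset that removed the trend on span from each library, Mcu was at 0.48 (SE 0.0647, edgeR adjusted p 1.29e-06) and Micu3 at 0.99 (SE 0.133), both still called higher. Smdt1 was then called higher at 0.23 (edgeR adjusted p 0.00610) and Micu2 lower at -0.23 (edgeR adjusted p 0.00420), so 4 of 6 members were called, against 62.1% of the 13084 genes with a span. Over all alternatives the adjusted p of Smdt1 ran from 0.00610 to 0.991 and that of Micu2 from 0.00420 to 0.853, and neither was called in any alternative without the offset. Mcub at 0.05 and Mcur1 at 0.22 were not called with the offset.

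**Figure D2:**
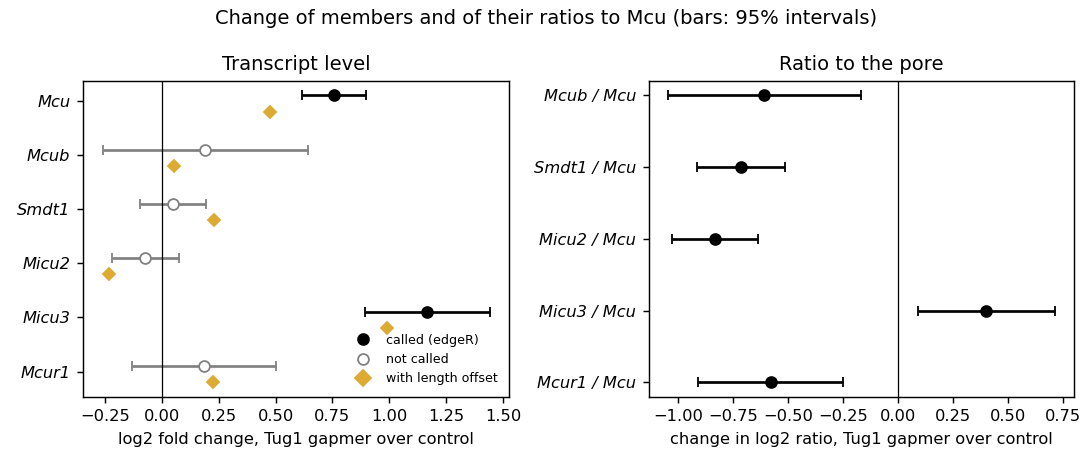
Left, log2 fold change of each member, Tug1 gapmer over control gapmer, with its 95% interval from the edgeR fit (filled, called; open, not called) and the value with the length offset as a diamond. Right, change in the log2 ratio of each regulator to Mcu with its 95% interval from the limma fit; 4 ratios lie below 0 and that of Micu3, at 0.40, lies above.

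The second comparison was the balance between the regulators and the pore, taken in each library as counts of a regulator per 100 counts of Mcu. Counts are not corrected for transcript length, so only the change of a ratio between the groups is read, not its size. Mcub, Smdt1, Micu2 and Mcur1 fell relative to Mcu, and Micu3 rose relative to Mcu. The libraries of the groups did not overlap for 5 of 5 ratios, against 82.1% of the ratios of all other tested genes to Mcu. All 5 changes passed an adjusted p of 0.05 in limma fitted to the ratios of 14215 genes to Mcu, 4 lower and 1 higher. The share of all these ratios that was called was 82.1%, with 79.0% lower and 3.08% higher. A lower ratio to Mcu was thus the common state of tested genes, since Mcu itself rose, and the median change of all ratios was -0.76. The 5 ratios share the Mcu counts and are not independent of each other.

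Micu2 stood at 139, 155 and 181 counts per 100 Mcu counts in the control libraries and at 95.1, 86.4 and 84.5 in the knockdown libraries. The highest knockdown ratio lay below the lowest control ratio by a wide margin. The mean ratio of Micu2 fell from 158 ± 21.1 to 88.7 ± 5.66 (SD, n = 3), to 56.0% of control. The change was -0.83 on the log2 scale (SE 0.0998, 95% interval -1.03 to -0.63, limma adjusted p 3.12e-16).

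Smdt1, the conductance partner of the pore, stood at 114, 123 and 134 counts per 100 Mcu counts in the control libraries and at 82.5, 76.4 and 67.7 in the knockdown libraries. Its mean ratio fell from 124 ± 9.92 to 75.5 ± 7.48 (SD, n = 3), to 61.0% of control. The log2 change was -0.71 (SE 0.103, 95% interval -0.91 to -0.51, limma adjusted p 1.09e-11). With the length offset it was -0.25 (limma adjusted p 0.0143). Over all alternatives its adjusted p ran from 2.55e-12 to 0.0250.

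Micu3 was the regulator that rose further than the pore. Its ratio was 13.9, 18.3 and 15.0 counts per 100 Mcu counts in the control libraries and 21.0, 22.0 and 19.3 in the knockdown libraries. The gap between the groups was narrow, with control replicate 2 at 18.3 and knockdown replicate 3 at 19.3. The mean ratio of Micu3 rose from 15.7 ± 2.28 to 20.8 ± 1.38 (SD, n = 3), a log2 change of 0.40 (SE 0.159, 95% interval 0.09 to 0.72, limma adjusted p 0.0146). Without control replicate 1 the change was 0.32 (limma adjusted p 0.0614), and without knockdown replicate 2 it was 0.36 (limma adjusted p 0.0669), so the call rested on having both libraries. The call was also lost at the stricter adjusted p of 0.01, and it held in 11 of 14 alternatives. Over all alternatives the adjusted p of the Micu3 ratio ran from 0.00152 to 0.0669.

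Mcub, the inhibitory paralogue, had ratios of 9.38, 8.89 and 9.79 counts per 100 Mcu counts in the control libraries and 8.07, 6.53 and 4.40 in the knockdown libraries. The knockdown libraries spread widely and the first of them lay close to the controls. The log2 change was -0.61 (SE 0.224, 95% interval -1.05 to -0.17, limma adjusted p 0.00890). Without knockdown replicate 3 it was -0.37 and no longer called (limma adjusted p 0.159, with a range of 0.00282 to 0.159 over the alternatives). The call held in 12 of 14 alternatives. It was also lost when the length offset was combined with a block for replicate number.

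Mcur1 had ratios of 20.5, 18.8 and 17.7 counts per 100 Mcu counts in the control libraries and 12.3, 14.9 and 11.1 in the knockdown libraries. The groups did not overlap, although those of Mcur1 itself did. The log2 change was -0.58 (SE 0.168, 95% interval -0.91 to -0.25, limma adjusted p 0.000857). With the length offset the Mcur1 ratio was at -0.26 and not called (limma adjusted p 0.148, with a range of 0.000543 to 0.157 over the alternatives).

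**Figure D3:**
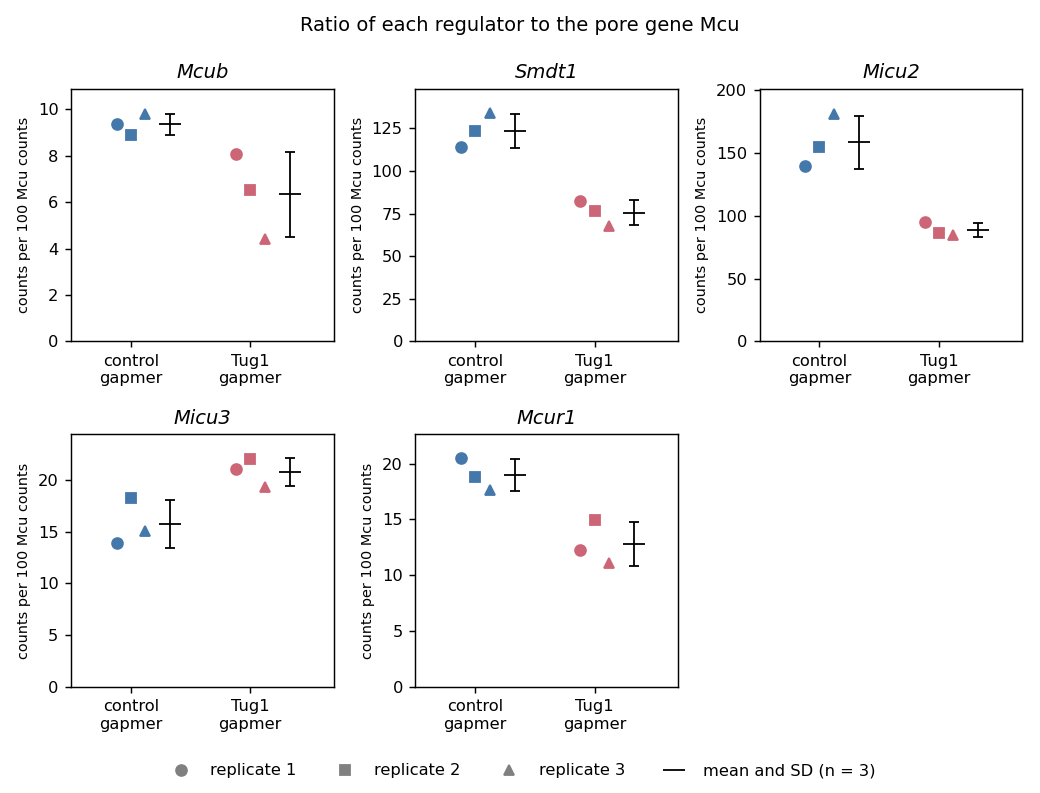
Counts of each regulator per 100 counts of Mcu, one point per library with its replicate number as the symbol, and the mean and SD of 3 libraries beside each group; each axis starts at 0. Knockdown libraries lie below every control library for Mcub, Smdt1, Micu2 and Mcur1 and above them for Micu3.

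The exact two-sided permutation test over libraries gave p = 0.1 for each of the 5 ratios, which is the smallest value that 3 against 3 libraries allow, and it stayed 0.1 after adjustment over the 5. The spread of Mcu enters every ratio and was estimated on 4 residual degrees of freedom, while limma shares one spread over all genes, so its p-values for ratios are too small. The changes were also taken as differences of the edgeR log2 fold changes, with the SE of Mcu entering each. That fit borrows spread between genes too, so its p-values do not rest on the 4 residual degrees of freedom alone. The changes relative to Mcu were then -0.83 for Micu2, -0.71 for Smdt1, -0.58 for Mcur1, -0.57 for Mcub and 0.41 for Micu3. A t test on each difference, taking the fold changes as independent, gave adjusted p-values of 5.76e-08, 6.35e-07, 0.00330, 0.0263 and 0.0157 in that order. All 5 were called, against 81.4% of all other tested genes. Called lower were 78.5% and called higher 2.93% of these.

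As shares of the pooled counts of the 6 members, Mcu went from 23.5% ± 1.66 to 32.9% ± 1.77 (SD, n = 3) and Micu3 from 3.70% ± 0.543 to 6.83% ± 0.311. Micu2 went from 37.1% ± 2.30 to 29.2% ± 0.837 and Smdt1 from 29.0% ± 0.278 to 24.8% ± 1.15. A share falls when other members rise, and neither Micu2 (-0.07) nor Smdt1 (0.05) was called on its own log2 fold change. The shares of Mcub, at 2.20% ± 0.142 and 2.07% ± 0.502, and of Mcur1, at 4.48% ± 0.648 and 4.20% ± 0.583, overlapped between the groups. The summed level of the members was 141 ± 7.65 CPM in control and 171 ± 3.74 CPM in knockdown libraries (SD, n = 3).

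Of 12 genes that assemble, process or otherwise act on uniporter subunits, all tested, 3 rose, 5 fell and 4 did not pass, with a median log2 fold change of -0.01. The called share was near the 61.7% of all tested genes, of which 30.8% were called higher and 30.9% lower. The inner membrane protease genes differed in direction: Oma1 (0.71), Yme1l1 (0.51) and Afg3l2 (0.25) rose, and Spg7 (-0.25) fell. Afg3l2 and Spg7 encode subunits of the same protease, which is known to degrade EMRE that is not built into the complex. With the length offset Oma1 was at 0.45. Chchd4, which imports and oxidises cysteine-rich proteins of the intermembrane space, fell from 18.9 ± 1.02 to 9.02 ± 0.286 CPM (SD, n = 3). That is -1.07 on the log2 scale (SE 0.103, edgeR adjusted p 6.03e-09). Gfer, the oxidase that recycles the Chchd4 product, fell from 47.3 ± 3.13 to 27.1 ± 2.98 CPM (SD, n = 3), with a log2 fold change at -0.80 (SE 0.0795, edgeR adjusted p 8.57e-09). The arginine methyltransferase gene Prmt1 fell by 0.34 on the log2 scale. Creb1, whose product has been described as a regulator of the Mcu promoter, was at 27.9 CPM in control and 27.7 CPM in knockdown libraries, a log2 fold change of -0.01 (edgeR adjusted p 0.907).

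Genes that deliver calcium to the uniporter or release it from the matrix were next. Of 21 genes 20 were tested, 12 rose, 3 fell and 5 did not pass, against 61.7% of all tested genes called, 30.8% higher and 30.9% lower. The median log2 fold change of the list was 0.18. The outer membrane receptor gene Fundc1, whose product sits at contacts with the reticulum, rose from 21.4 ± 0.841 to 35.7 ± 2.29 CPM (SD, n = 3), by 0.74 on the log2 scale (SE 0.0785, edgeR adjusted p 2.52e-08). The inositol trisphosphate receptor gene Itpr1 rose by 0.64 and the inner membrane exchanger gene Letm1 by 0.61. With the length offset Itpr1, longer than 98.0% of tested genes, was at 0.26. The exchanger gene Slc8b1 (-0.36) and its reported partner gene Tmem65 (-0.21) fell, and Tmem65 was at -0.41 with the length offset.

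Genes for matrix enzymes and carriers that respond to calcium, or that oppose such enzymes, formed a list of 21. All 21 were tested, 9 rose, 4 fell and 8 did not pass, with a median log2 fold change of 0.07, and the called share was near the 61.7% of all tested genes. Ogdh, a subunit of the calcium-sensitive oxoglutarate dehydrogenase, rose by 0.61, and the pyruvate dehydrogenase kinase genes Pdk4 and Pdk2 rose by 0.78 and 0.61, while Pdk1 was at -0.50. Of 3 genes for calcium-regulated ATP-Mg/phosphate carriers, Slc25a24 and Slc25a25 fell. Slc25a24 went from 62.4 ± 2.33 to 24.3 ± 0.822 CPM (SD, n = 3), or -1.36 on the log2 scale (SE 0.0670, edgeR adjusted p 9.95e-14). Slc25a25 was at -0.56, and Slc25a23, counted with the list before, was at -0.03 and not called (edgeR adjusted p 0.947) at a low level of 1.23 CPM in control and 1.21 CPM in knockdown libraries.

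General mitochondrial genes, listed to set the uniporter beside the organelle, gave 9 higher, 4 lower and 10 not called among 23 tested, against 61.7% of all tested genes called, with a median log2 fold change of 0.09. The import genes Timm23 and Timm44 rose by 0.64 and 0.60, and Tomm70 (-0.39), Cox5a (-0.27) and Hspd1 (-0.24) fell. With the length offset 20 of the 23 were called, against 62.1% of all genes with a span. The 4 genes called lower without the offset were still lower with it, and the rest of the 20 were higher.

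**Figure D4:**
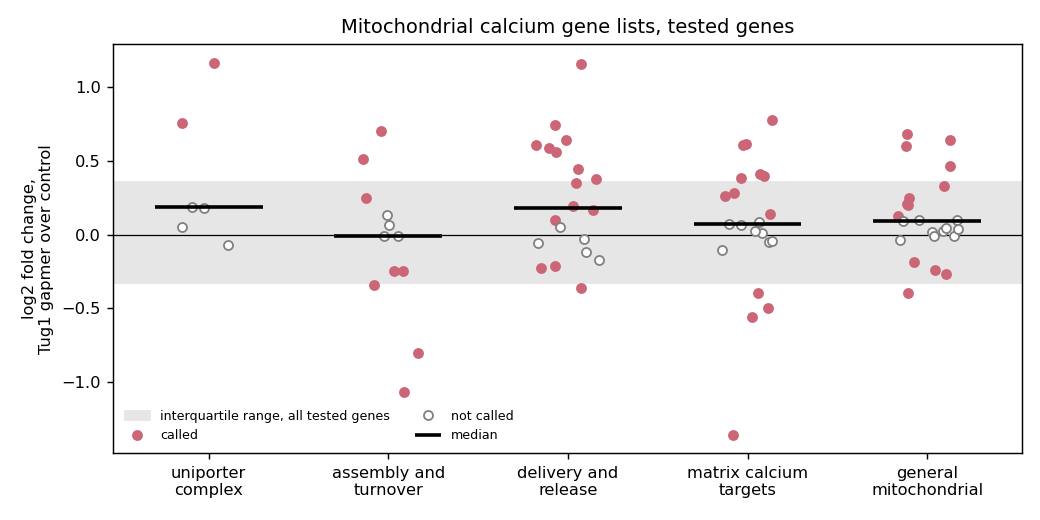
Log2 fold change of every tested gene of 5 lists, Tug1 gapmer over control gapmer, one point per gene (filled, called; open, not called), with the list's median as a bar and the interquartile range of all tested genes, -0.33 to 0.36, shaded. Mcu and Micu3 lie above the shaded band and the other 4 members lie inside it.

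The tested genes whose profile over the 6 libraries was most like that of Mcu were sought among 9078 genes. These had a mean of 10 CPM or more and a symbol that was not a placeholder, such as a LOC name. Likeness was the root mean square distance of log2 CPM centred on the control mean. The nearest were Dzip1 (0.0225), Zfpm2 (0.0290), Il6r (0.0328), Kcnd1 (0.0368) and Ift140 (0.0387), with log2 fold changes from 0.73 to 0.78. Zfpm2, longer than 98.9% of tested genes, was at 0.31 with the length offset. For Micu3 the nearest were Pnpla7 (0.0464), Ppt2 (0.0561), Ralgps2 (0.0575), Nprl3 (0.0584) and Plxna1 (0.0591), with log2 fold changes from 1.12 to 1.20. These libraries fall into a pair of groups, so the distances mostly compare the size of the group difference.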

How the data were processed

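Poly-A RNA from 3 control and 3 Tug1 gapmer libraries was sequenced from 500 ng of total RNA each, as stranded libraries, per the labels' protocols. The table deposited by the authors held raw counts for each gene and library, unscaled and unpooled, as the values showed. The submitters' processing notes name FastQC 0.11.7, fastp 0.14.1 and STAR 2.5; counting tool, genome build, annotation and use of strand were not given in the sources used here. No coordinates are printed for that reason, and genomic span came from the RefSeq table of GRCr8. Columns outside the 6 libraries numbered 0.

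Genes passing edgeR's filter (minimum count 10, minimum total 15) were scaled by TMM and tested in edgeR 4.0.16 (R 4.3.3), two-sided, on all 6 libraries without a block. Ratios to Mcu were log2 values after adding 0.5 to each count, fitted in limma 3.58.1 with a trend on mean level. The length offset subtracted in each library a lowess curve (smoother 0.3) fitted to log2 deviations against log2 gene span. DESeq2 1.42.0 served as an alternative. Scripts were tested on simulated data.

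Members and gene lists were chosen with earlier results of these data known. Named were the members, Tug1, the 3 highest and 3 lowest called genes of each list at a mean of at least 5 CPM, and the 5 genes nearest to Mcu and to Micu3; Creb1, Spg7, Slc25a23, the markers and the nearest genes' lengths were named outside that rule. A few rule genes enter the counts only and are not reported here. Libraries with the same replicate number showed no shared deviation, which does not settle whether they were paired. The main fits did not pair them. Intervals are 95% and cover these libraries only.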

Additional observations from a re-analysis of the deposited data

How the results depend on the processing

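Mcu and Micu3 stayed called higher under each of 16 alternatives, from 0.48 to 0.82 and from 0.99 to 1.24, and within 0.72 to 0.82 and 1.12 to 1.24 in fits without one library. Tug1 ran from -2.22 to -2.07, and between -2.22 and -2.15 in those fits. Changed genes numbered from 7353 to 8987 (8128 to 8410 with a library left out). With the length offset, whether or not the replicate block was added, 4 members were called in place of 2, and 20 and 21 general mitochondrial genes in place of 13. The offset with the replicate block left 3 of 5 ratios called, and the block alone left all 5. Leaving out a library gave 4 to 5 called ratios and 2 called members. Without one library Mcub ran from -0.0018 (without knockdown replicate 1) to 0.3746 and Micu2 from -0.1285 to 0.0166 (without control replicate 3), with no call. Libraries with the same replicate number did not deviate together (correlations of -0.00479, 0.0245 and 0.0204 over genes), and with the replicate block Mcu was at 0.76 and 2 members were called. Of 34 other named genes, 33 kept direction and call in every alternative. Computing ratios as a difference of edgeR fold changes was chosen after seeing the data. The cause was not tested. Depth limits Mcub most, at 34 to 61 counts per library.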
